A study of Mus musculus with 44 samples.

Results

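The arrays described here measured what 4-hydroxytamoxifen (4-OHT) did in mouse embryonic stem (ES) cells that carried an unrecombined HexERTVP2 insertion, that is, the ligand without the recombined gene. They were chosen by title: HexERTVP2, unrecombined, with 4-OHT or with no 4-OHT. This gave 14 of the 44 arrays of the series. Clone 2 had 3 arrays with 4-OHT and 3 without, and clone 1 had 3 with and 5 without. All 4 groups were CGR8 ES cells (the cgr8.8 clone, per the labels), with HexERTVP2 at the Rosa26 locus in its unrecombined state. As the name reads, HexERTVP2 joins the homeodomain repressor Hex (gene symbol Hhex) to a 4-OHT-responsive oestrogen receptor domain and a VP activation domain. What separates the recombined from the unrecombined allele, the dose of 4-OHT and its duration are not given in the sources used here. Each of the 2 clones is a single clone, and nothing in the labels shows that replicate arrays stem from separate cultures. The p-values therefore describe the variation among these arrays alone, and the small number of arrays limits the precision. A further 14 arrays of recombined HexERTVP2 cells from clones of the same 2 numbers, 7 with and 7 without 4-OHT, were used to set the response of unrecombined cells against. Where wild-type ES cells (4 arrays) are named, they are the cells the labels call wild type. In 4 arrays of the series the title contradicted its own code, and they entered no comparison.

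4-OHT is the active metabolite of tamoxifen and binds the oestrogen receptors ERα and ERβ, where it acts as an antagonist or a partial agonist, depending on the tissue. It also binds the oestrogen-related receptors ERRβ and ERRγ and lowers their activity. ERRβ, encoded by Esrrb, belongs to the transcription factor network that keeps mouse ES cells undifferentiated. Tamoxifen compounds also inhibit late enzymes of cholesterol synthesis. Fusions to a mutated oestrogen receptor domain are held inactive in the absence of the ligand, so cells without an active fusion serve as the control for effects of the ligand itself.

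All values are log2 intensities of Affymetrix MG-U74Av2 probe sets, and a change is the mean with 4-OHT minus the mean without it. The 14 arrays had median intensities of 107 to 112, and the median of their log2 values was 6.77. Pou5f1, Sox2 and Nanog, the core transcription factors of ES cells, lay between 10.76 and 12.01, between 10.57 and 11.79 and between 10.43 and 11.39 on all 14. Of 23 measured pluripotency genes 21 lay above the median probe set, against 6 of 20 primitive streak and mesoderm genes, 6 of 14 trophoblast genes, 10 of 22 neuroectoderm genes, 9 of 20 blood and endothelium genes and 16 of 28 primitive and visceral endoderm genes. The log2 ratio of 3′ to 5′ β-actin signal, which follows RNA integrity and labelling, was higher with 4-OHT by 0.28 in clone 2 and by 0.14 in clone 1 (0.21 on average, exact two-sided permutation p = 0.343). That of Gapdh was higher by 0.34 in clone 2 and by 0.07 in clone 1 (0.20 on average, exact two-sided permutation p = 0.223). Deviations of the β-actin ratio followed the first component of the spread within groups, which held 52.9% of that variance (Pearson r = 0.931, permutation p = 1e-05, the smallest that 100000 permutations can give, Spearman rho = 0.868, permutation p = 9e-05, n = 14, r = 0.925 once the 2 arrays with the most distant ratios were left out, 1 relation tested). The 14 deviations were taken from group means and permuted across groups. They are therefore not independent, and these permutation p-values may overstate the evidence. The 3 clone 2 arrays without 4-OHT were the least alike, with a median SD of 0.169 over probe sets, against 0.119 to 0.126 in the other unrecombined groups. Their β-actin ratios were 1.48, 0.561 and 0.559. No array date or batch was given in the sources used here.

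Averaged over the clones, no gene passed the test of a change with 4-OHT. limma called 0 of 12422 probe sets at an adjusted p under 0.05 (0%), and 432 had an unadjusted p under 0.05 (3.48%). The lowest adjusted p was 0.999. The differences were small: their median size was 0.06 on the log2 scale, and 99% were at most 0.28. For 94.8% of probe sets the 95% interval of the change lay within ±0.5, and for 99.9% within ±1, which is 2-fold. The interval reached beyond ±1 for 8 probe sets. The lowest value of all probe sets was that of Actb (β-actin), chosen here after its values were seen, at −0.59 (SE 0.44), with −0.61 in clone 2 and −0.57 in clone 1. A second Actb probe set was at −0.40 (SE 0.26). The β-actin ratio named above comes from other probe sets of the same transcript.

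The measured oestrogen and oestrogen-related receptors did not pass the test. Esr1, which encodes ERα, differed by −0.07 (95% interval −0.23 to 0.09), and its 3 other probe sets by −0.08, −0.02 and 0.01. By clone, Esr1 was at −0.27 in clone 2 (limma adjusted p = 0.249) and at 0.14 in clone 1. Its 3 other probe sets were at −0.23, −0.12 and −0.07 in clone 2 and at 0.07, 0.07 and 0.09 in clone 1. Esr2, which encodes ERβ, had 4.89, 4.59 and 4.71 in clone 2 with 4-OHT, against 4.85, 4.80 and 4.96 without, and differed by −0.11 on average (interval −0.27 to 0.05). Esrrb had 6.29, 6.15 and 5.99 in clone 2 with 4-OHT, against 6.52, 6.38 and 6.21 without. In clone 1 its values were 6.06, 6.33 and 6.29 with 4-OHT, against 6.20, 6.25, 6.02, 6.01 and 6.33 without. The arrays overlapped in both clones, and the mean change was −0.08 (interval −0.24 to 0.08). The Esrrb probe set had a mean level of 6.22, under the array median of 6.77, and whether it exceeds background is not known here. Esrra, which encodes ERRα, differed by −0.01 (SE 0.07). Esrrg, which encodes ERRγ, had no probe set under its symbol and was not measured. Of 11 measured receptors and co-regulators 0 rose and 0 fell, and the intervals of all 11 lay within ±0.5. Their median was −0.01, equal at this precision to the median of all probe sets (−0.01). Crebbp and Ncoa3, acetyltransferase co-activators, were at 0.11 and 0.12.

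Targets of oestrogen signalling did not move together. Of 22 measured genes of the oestrogen response list 0 passed on average over the clones, and the median was 0.01. A positive value was held by 13 (59.1%), against 46.4% of all probe sets. Prss23, a serine protease that oestrogen induces in human breast cancer cells, was at 0.30 (SE 0.07, adjusted p = 0.999), with 0.59 in clone 2 and 0.01 in clone 1. Fos, an immediate-early gene that oestrogen induces in some tissues, had the highest average of all probe sets, 0.48, with an SE of 0.23, and its second probe set was at 0.05. Its arrays overlapped widely: 6.60, 5.64 and 5.93 in clone 2 with 4-OHT, against 6.07, 5.45 and 4.51 without. Of 15 genes linked to Esrrb in ES cells 0 passed and the median was 0.04. Klf4 in that list was at 0.17 (SE 0.11) and Nr0b1 at −0.12 (SE 0.11).

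Promoter sequence was read for genes with a symbol that passed a test in unrecombined clone 2 or in the difference from recombined cells, and is shown for Prss23, which passed both, and for Nr5a2, the other gene with a match. RefSeq windows (GRCm38.p6) from 250 bases before to 50 after the start of 7 genes (Prss23, Acta2, Phf13, Inhbb, Klf2, Nr5a2 and Cited2), 14 windows in all, were searched on both strands. Egr1 was not searched here. The full oestrogen response element (GGTCA, any 3 bases, then TGACC) was in 0 of the 14 and in 0.07% of 32851 RefSeq windows, and the Esrrb element TCAAGGTCA in 0 and in 0.423%. The single receptor site AGGTCA, which lies within the Esrrb element, was in 3 of the 14 windows and in 16.3% of all. These were 2 of 7 Prss23 windows, which overlap and share a match, and 1 of 2 Nr5a2 windows. The 250 bases before 1 start of each gene read 5′ to 3′ on the gene's strand as follows, with AGGTCA on either strand in capitals (TGACCT where it lies on the opposite strand). A match of letters is not a bound site.
Prss23, chr7:89518205-89518454, minus strand: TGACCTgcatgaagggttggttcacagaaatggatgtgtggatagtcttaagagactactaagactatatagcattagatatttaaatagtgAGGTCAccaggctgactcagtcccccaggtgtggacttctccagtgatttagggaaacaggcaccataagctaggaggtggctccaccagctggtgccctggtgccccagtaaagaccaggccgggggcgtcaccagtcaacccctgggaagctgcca
Nr5a2, chr1:136960449-136960698, minus strand: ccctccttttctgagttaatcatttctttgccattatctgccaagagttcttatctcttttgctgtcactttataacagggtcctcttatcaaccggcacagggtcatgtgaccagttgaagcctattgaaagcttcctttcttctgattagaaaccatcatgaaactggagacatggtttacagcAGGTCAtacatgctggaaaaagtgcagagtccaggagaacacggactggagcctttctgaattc

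In clone 2, 3 genes rose with 4-OHT and none fell (0.0242% of 12422 probe sets called, 2125 or 17.1% with an unadjusted p under 0.05). They were Prss23, Acta2 (smooth muscle actin) and Phf13 (a chromatin protein that binds methylated histone H3). Prss23 had 5.52, 5.47 and 5.72 in clone 2 with 4-OHT, against 5.03, 5.13 and 4.79 without. The groups did not overlap, and Prss23 rose by 0.59 (SE 0.10, 1.5-fold, limma adjusted p = 0.0449). In clone 1 it had 5.66, 5.41 and 5.51 with 4-OHT, against 5.68, 5.44, 5.67, 5.45 and 5.34 without, which overlap, and the change was 0.01 (interval −0.18 to 0.20). These are low levels for the array, under its median, and whether they exceed background cannot be read from the files. Wild-type cells had 5.0, 4.94, 4.68 and 4.78, near clone 2 without 4-OHT.

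Acta2 had 7.77, 7.38 and 7.72 in clone 2 with 4-OHT, against 6.89, 7.06 and 6.42 without. It rose by 0.83 (SE 0.15, 1.78-fold, limma adjusted p = 0.0449). In clone 1 its values were 7.81, 7.61 and 8.04 with 4-OHT, against 8.02, 7.76, 7.87, 7.75 and 7.46 without, and the change was 0.05 (interval −0.23 to 0.33). With 4-OHT, clone 2 thus had values that overlapped those of clone 1. Acta2 is also a marker of fibroblasts, such as those of a feeder layer. Of the 22 measured fibroblast markers Acta2 was the 1 that rose in clone 2, and the median was −0.04. Positive there were 8 (36.4%), near the 40.5% of all probe sets. Tagln, another smooth muscle gene of the list, was at 0.34 (adjusted p = 0.352). The summed intensity of the 22 markers was 3922 to 4029 in clone 2 with 4-OHT, against 3975 to 4145 without. Without Acta2 and Tagln it was 3255 to 3466 with 4-OHT, against 3481 to 3668 without. Both genes were higher with 4-OHT in clone 2, so leaving them out lowers the sum with 4-OHT by construction. In clone 1 the 22 markers summed to 3980 to 4156 with 4-OHT, against 3887 to 4163 without. Without Acta2 and Tagln the clone 1 sums were 3377 to 3448 with 4-OHT, against 3278 to 3546 without, which overlap. No marker was at 0, and Col1a1, a collagen that marks fibroblasts, lay between 7.87 and 8.66 on the 14 arrays. In bulk RNA, fewer cells of a type and less RNA per cell cannot be told apart.

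Phf13 had 7.01, 7.11 and 7.09 in clone 2 with 4-OHT, against 6.72, 6.60 and 6.69 without, and rose by 0.40 (SE 0.07, 1.32-fold, limma adjusted p = 0.0449). The 3 arrays of clone 2 without 4-OHT were the lowest of all HexERTVP2 arrays for this gene. In clone 1 it had 7.01, 7.02 and 7.12 with 4-OHT, against 7.11, 7.04, 7.13, 7.26 and 7.01 without (change −0.06). Wild-type cells had 7.52, 7.34, 7.38 and 7.55, above every unrecombined array.

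The 3 calls lay close to the threshold. They ended in 23 of 28 fits that left out 1 array, all but those without array 1 or 2 of clone 2 without 4-OHT, array 5 of clone 1 without 4-OHT, array 1 of recombined clone 1 without 4-OHT or array 3 of recombined clone 1 with 4-OHT, with adjusted p-values up to 0.413 for Prss23 and Phf13 and 0.470 for Acta2. They ended as well with all 40 assigned arrays, with the 14 unrecombined arrays alone, with clone 2 alone, with the Gapdh 3′/5′ ratio as a covariate and with the replicate number as a block in recombined clone 1 (limma adjusted p = 0.0666), and that of Acta2 after a second quantile normalisation, while with the β-actin covariate all 3 stayed among 33 calls, 19 higher and 14 lower with 4-OHT. Genes that fell were thus called there, as they were with array weights (18 higher, 8 lower) and with the 39 assigned arrays other than array 2 of the unrecombined Hex group (21 higher, 8 lower). The change of Acta2 was 0.64 to 0.96 over the left-out arrays, that of Prss23 0.49 to 0.66 and that of Phf13 0.37 to 0.43.

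**Figure D1:**
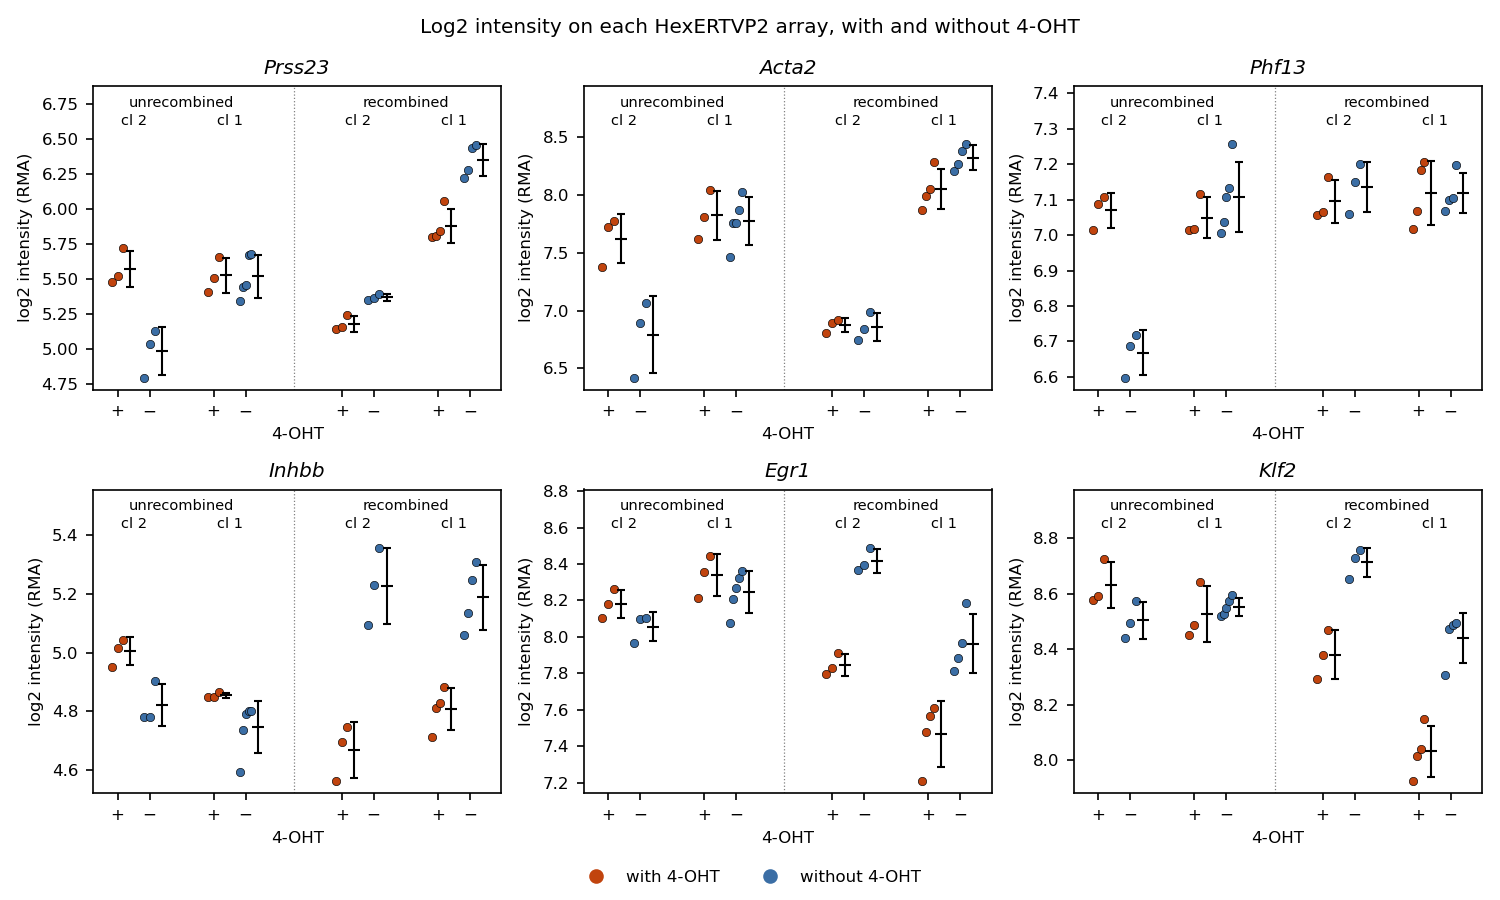
Log2 intensity of 6 genes on each HexERTVP2 array (y axis) by clone, recombination state and presence (+) or absence (−) of 4-OHT (x axis); points are arrays, and the bar beside them is the mean ± SD (n = 3 to 5). In unrecombined clone 2 the arrays with 4-OHT lie above those without for Prss23, Acta2 and Phf13, while in clone 1 they overlap; Inhbb, Egr1 and Klf2 are lower with 4-OHT in recombined cells.

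In clone 1 no probe set was called by limma (0%), 191 lay under 0.05 before adjustment (1.54%), and for 89.3% the interval lay within ±0.5. The difference between the clones, clone 2 minus clone 1, was tested directly and called 0 probe sets (0%), with 1935 at an unadjusted p under 0.05 (15.6%) and a lowest adjusted p of 0.232. For the 3 genes called in clone 2 it was 0.58 (SE 0.14) for Prss23, 0.78 (SE 0.20) for Acta2 and 0.46 (SE 0.10) for Phf13, each with that adjusted p. The responses are therefore not shown to differ between the clones. More of the differences were large in clone 2, where 228 probe sets were beyond 0.5 in size, against 1 in clone 1.

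The changes of the clones ran in opposite directions more often than not. Across the 12422 probe sets, which are not independent and share arrays, their Pearson correlation was −0.347, and 32.7% had the same sign in both. With the β-actin covariate these values were −0.503 and 28.8%, and the part of RNA quality in this opposition was otherwise not tested. In 5 probe sets (0.0403%) every array with 4-OHT lay above every array without it in both clones, in 0 every one lay below, and in 78 (0.628%) the arrays separated in opposite directions. The first 5 were probe sets of Inhbb, Arcn1, Bcl2, Kcna4 and 1 transcript without a symbol. All 5 lay at or below the median level. Their means over the 14 arrays were 4.84 for Inhbb, 5.77 for Arcn1, 3.95 for Bcl2 and 4.07 for Kcna4. Inhbb, the βB subunit of activin and inhibin B, had 4.95, 5.02 and 5.04 in clone 2 with 4-OHT, against 4.78, 4.90 and 4.78 without. In clone 1 it had 4.87, 4.85 and 4.85 with 4-OHT, against 4.74, 4.79, 4.80, 4.80 and 4.59 without. The average change was 0.15 (interval 0.04 to 0.26, adjusted p = 0.999). Arcn1, a coatomer subunit, differed by 0.19, Bcl2, an inhibitor of apoptosis, by 0.13 and Kcna4, a potassium channel, by 0.12, with the same adjusted p. The other probe sets of these genes did not bear the same values. Those of Arcn1 were at 0.14 and −0.01, and those of Bcl2 at −0.12 and −0.04. These other Bcl2 probe sets had higher means, 7.32 and 8.63.

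**Figure D2:**
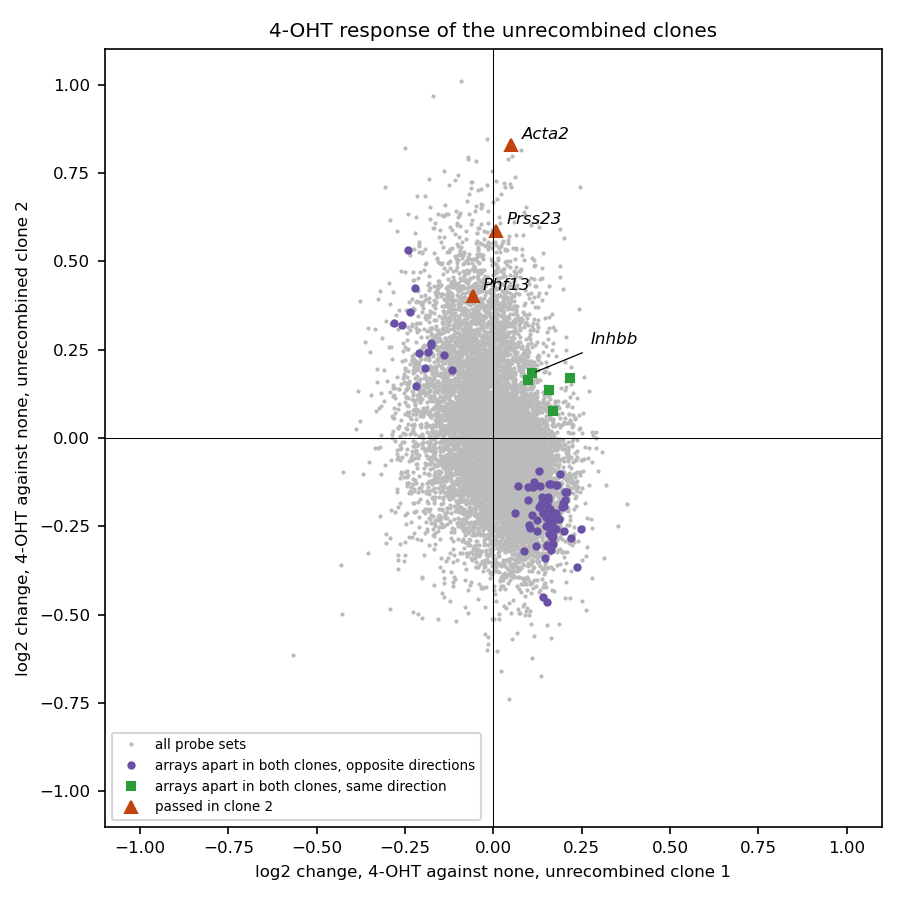
Change with 4-OHT in unrecombined clone 2 (y axis, log2) against that in clone 1 (x axis, log2) for 12422 probe sets. The 3 genes called in clone 2 lie near 0 in clone 1, and probe sets whose arrays separated in both clones lie mostly in the quadrants of opposite sign (78 against 5).

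In 16 of 20 gene lists the medians of the clones had opposite signs. In the other 4 (oestrogen response, autophagy and lysosome, p53 and DNA damage, and immediate-early genes) they had the same sign. Among pluripotency genes 17 of 23 were higher in clone 2 with 4-OHT (median 0.12) and 1 of 23 in clone 1 (median −0.08), against 51% and 46.4% of all probe sets above the median level. None of the 23 passed in either clone or on average, where the median was 0.02. Klf4 was at 0.36 in clone 2 and −0.02 in clone 1. Of 29 cell cycle genes 21 were higher in clone 2 and 5 in clone 1. Lineage markers had the other order, as did all probe sets of low level: 30.1% of the probe sets below the median were higher in clone 2 and 70.4% in clone 1. Trophoblast genes were higher in 5 of 14 cases in clone 2 and in 14 of 14 in clone 1. For primitive streak and mesoderm genes the counts were 4 of 20 in clone 2 and 17 of 20 in clone 1, and for primitive and visceral endoderm genes 9 of 28 and 25 of 28. Of the last list 16 genes lay above the median level, and over probe sets of all levels 40.5% were higher in clone 2 and 58.4% in clone 1. The summed intensity of the 14 trophoblast markers, none of them at 0, was 1736 to 1837 in clone 2 with 4-OHT, against 1732 to 1918 without, and 1969 to 2029 in clone 1 with 4-OHT, against 1816 to 2009 without. That of the 23 pluripotency genes was 24132 to 28282 in clone 2 with 4-OHT, against 23274 to 26922 without, and 20934 to 24054 in clone 1 with 4-OHT, against 23909 to 26334 without. These sums overlapped in both clones. The primitive streak and mesoderm genes summed to 1811 to 2006 in clone 2 with 4-OHT, against 1902 to 2117 without, which overlap, and to 1938 to 2058 in clone 1 with 4-OHT, against 1825 to 1933 without, which do not. The primitive and visceral endoderm genes overlapped in both clones, with 6119 to 6442 in clone 2 with 4-OHT, against 5942 to 6403 without, and 4999 to 5485 in clone 1 with 4-OHT, against 4843 to 5477 without. The list medians reached at most 0.13 in size in either clone, and 0.05 on average over the clones. With a second quantile normalisation the median of pluripotency genes was 0.07 in clone 2 (0.12 before it) and −0.03 in clone 1 (−0.08 before it). That of primitive streak and mesoderm genes was −0.10 in clone 2 (−0.12 before it) and 0.02 in clone 1 (0.07 before it). For probe sets at or below the median level the medians shrank from −0.07 to −0.02 in clone 2 and from 0.05 to 0.005 in clone 1. The opposition between the clones thus depended in part on the normalisation. With the β-actin covariate the clone 2 median of cell cycle genes was 0.18 (0.08 without it) and that of hypoxia and glycolysis genes 0.14 (0.06 without it).

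**Figure D3:**
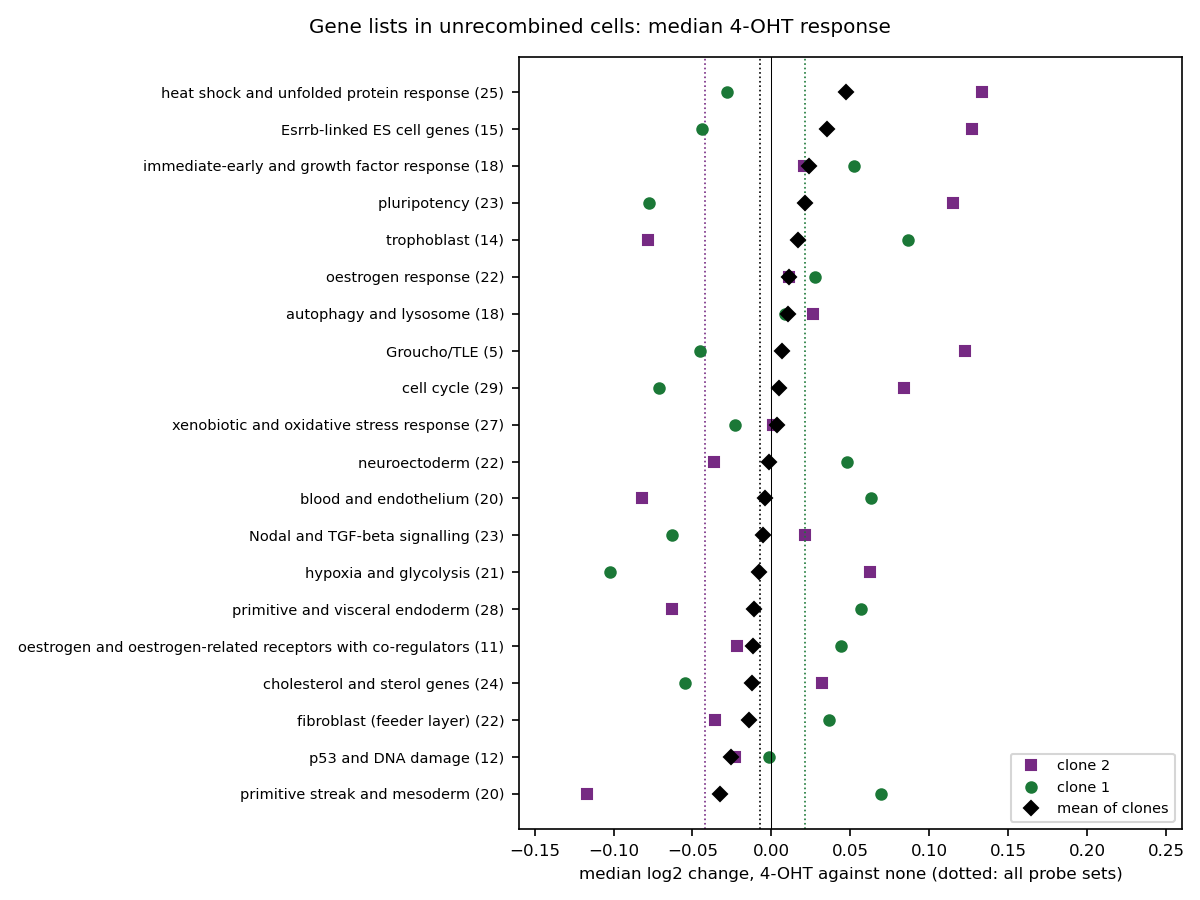
Median log2 change with 4-OHT (x axis) over the measured genes of 20 lists (y axis, number of genes in brackets) in unrecombined clone 2, clone 1 and their mean; dotted lines are the medians of all probe sets. The medians of the mean lie between −0.03 and 0.05, with clone 2 and clone 1 on opposite sides of it for most lists.

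Single lineage markers were given by their lowest unadjusted p. Neurod1, a neural transcription factor, had an average change of 0.23 (SE 0.09), Col4a1, a basement membrane collagen of primitive endoderm, one of 0.38 (SE 0.14) and Apoa1, an apolipoprotein of visceral endoderm, one of −0.21 (SE 0.07). Foxc1, a mesodermal transcription factor, was at −0.16 (SE 0.06) and Rhox6, a trophoblast homeobox gene, at −0.17 (SE 0.08). None of these averages passed, each with an adjusted p of 0.999. The clones differed for Apoa1 (−0.50 in clone 2 and 0.08 in clone 1) and Rhox6 (−0.35 and 0.01). They had the same sign for Neurod1 (0.31 and 0.16), Col4a1 (0.57 and 0.20) and Foxc1 (−0.24 and −0.09).

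Known side effects of tamoxifen compounds were looked for in the genes of cholesterol and stress pathways. Of 24 measured cholesterol and sterol genes 0 rose and 0 fell, with a median of −0.01. Sc5d, the sterol C5 desaturase, had 5.71, 5.60 and 5.62 in clone 2 with 4-OHT, against 5.31, 4.84 and 3.75 without. Its change of 1.01 there was the highest of all probe sets in clone 2 but did not pass (adjusted p = 0.124). The arrays without 4-OHT spread over more than the change, clone 1 was at −0.09, and the second probe set of Sc5d was at −0.05 in clone 2. Msmo1, a sterol methyl oxidase, was at 0.45 in clone 2 and −0.11 in clone 1. Of 27 genes of the xenobiotic and oxidative stress response 0 passed, with Abcb1b, a drug exporter, at 0.21 (SE 0.11) and Mt2, a metallothionein, at −0.15 (SE 0.06). Heat shock and unfolded protein response genes had the highest average median, 0.05, and 0 of 25 passed. Dnajb9, a chaperone of the endoplasmic reticulum, was at 0.68 in clone 2 (adjusted p = 0.150) and at −0.19 in clone 1, and its second probe set was at 0.003 in clone 2. Of 12 p53 and DNA damage genes 0 passed, with Ccng1, a p53 target, at 0.27 (SE 0.14). Of 18 autophagy and lysosome genes and 21 hypoxia and glycolysis genes 0 passed.

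Nodal, Tle4 and Hhex did not pass in unrecombined cells. Nodal, a TGF-β ligand, had 7.70, 8.01 and 7.94 in clone 2 with 4-OHT, against 7.53, 7.82 and 7.94 without, and 7.69, 8.03 and 7.40 in clone 1 with 4-OHT, against 7.65, 8.02, 7.93, 7.87 and 7.94 without. The groups overlapped in both clones, and the interval of the average change was −0.25 to 0.19. Tle4, a Groucho co-repressor, had the wider interval of −0.42 to 0.34. Hhex itself had 6.08, 6.35 and 6.26 in clone 2 with 4-OHT, against 6.14, 6.23 and 5.95 without, and 6.11, 6.15 and 6.10 in clone 1 with 4-OHT, against 6.17, 6.14, 6.18, 6.11 and 6.17 without (interval of the average −0.07 to 0.16). Wild-type cells had 6.11, 6.23, 6.15 and 6.08. Whether this probe set detects the inserted fusion is not known from the files. Of 23 Nodal and TGF-β signalling genes 0 passed, and of 5 Hhex and Groucho/TLE genes 0.

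The response of unrecombined cells was then set against that of recombined cells, by the difference of the average changes (unrecombined minus recombined). It was called in 7 probe sets (0.0564%), 6 positive (0.0483%) and 1 negative (0.00805%), and 686 had an unadjusted p under 0.05 (5.52%). In recombined cells alone 10 were called (0.0805%), 7 of them lower with 4-OHT (0.0564%). In all 6 genes with a symbol the value of unrecombined cells was above 0 and that of recombined cells below it. Selection by a positive difference favours such signs, and the unrecombined intervals of Egr1, Klf2 and Nr5a2 included 0. Inhbb had the lowest p: 0.15 in unrecombined and −0.47 in recombined cells, a difference of 0.62 (SE 0.08, limma adjusted p = 2.61e-04). Egr1, an immediate-early transcription factor, had 8.10, 8.26 and 8.18 in unrecombined clone 2 with 4-OHT, against 7.96, 8.11 and 8.10 without. In unrecombined clone 1 it had 8.44, 8.22 and 8.36 with 4-OHT, against 8.32, 8.07, 8.27, 8.36 and 8.21 without. These overlap in both clones, and the average was 0.11 (SE 0.07), with −0.53 in recombined cells and a difference of 0.64 (SE 0.10, adjusted p = 0.00391 from limma). The second Egr1 probe set had a difference of 0.17 (adjusted p = 0.933). The 3′/5′ ratios also differed between the 2 states. With 4-OHT the β-actin log2 ratio changed by −0.15 in recombined and 0.21 in unrecombined cells, averaged over the clones. That of Gapdh changed by −0.35 and 0.20. Fits with these ratios as covariates are given below.

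Klf2, a transcription factor of naive pluripotency, had 8.73, 8.59 and 8.58 in unrecombined clone 2 with 4-OHT, against 8.57, 8.49 and 8.44 without, and its average was 0.05 (SE 0.05). It fell by 0.37 in recombined cells, and the difference was 0.42 (SE 0.07, adjusted p = 0.00819, limma). Nr5a2, the nuclear receptor LRH-1 that activates Pou5f1, was at 0.02 in unrecombined cells and −0.31 in recombined cells (difference 0.33, SE 0.06, adjusted p = 0.0295, limma), and its second probe set had a difference of 0.04. Prss23 had a difference of 0.63 (SE 0.10, adjusted p = 0.00496, limma), with 0.30 in unrecombined and −0.33 in recombined cells, where it did not pass as the average of the clones (adjusted p = 0.0739) but did in clone 1 (−0.47, adjusted p = 0.0357). Cited2, a co-regulator that binds CBP and p300, had 9.39, 9.28 and 9.39 in unrecombined clone 2 with 4-OHT, against 8.98, 8.84 and 8.82 without. In clone 1 its values were 9.34, 9.11 and 9.21 with 4-OHT, against 9.38, 9.30, 9.42, 9.42 and 9.0 without. The clones thus lay on opposite sides of 0 (0.47 and −0.09), and the difference from recombined cells was 0.51 (SE 0.10, adjusted p = 0.0363, limma). The probe set with a negative difference has no symbol: it was at −0.02 in unrecombined and 0.52 in recombined cells.

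The calls of Inhbb, Egr1, Prss23 and Klf2, and that of the unnamed probe set, held in all 28 fits that left out 1 array. That of Nr5a2 ended in 14 of them and that of Cited2 in 17, which gave counts of 5 to 9. With all 40 assigned arrays 2 calls were left, those of Egr1 and Prss23. A second quantile normalisation ended the calls of Klf2, Cited2 and the unnamed probe set, and the Gapdh covariate those of Cited2, Nr5a2 and the unnamed probe set, while with the β-actin covariate all 7 held. With the replicate number as a block in every clone all 7 ended, with adjusted p-values from 0.0718. With that block in recombined clone 1 alone, where same-numbered arrays deviated together, 5 held, and those of Cited2 and Nr5a2 ended. In this difference Nodal was at −0.49 (SE 0.15, limma adjusted p = 0.856) and Calcoco2, an autophagy receptor, at 0.62 (SE 0.13). Tfap2c, a germ cell and trophoblast factor, was at 0.46 (SE 0.09), and none of these genes passed.

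**Figure D4:**
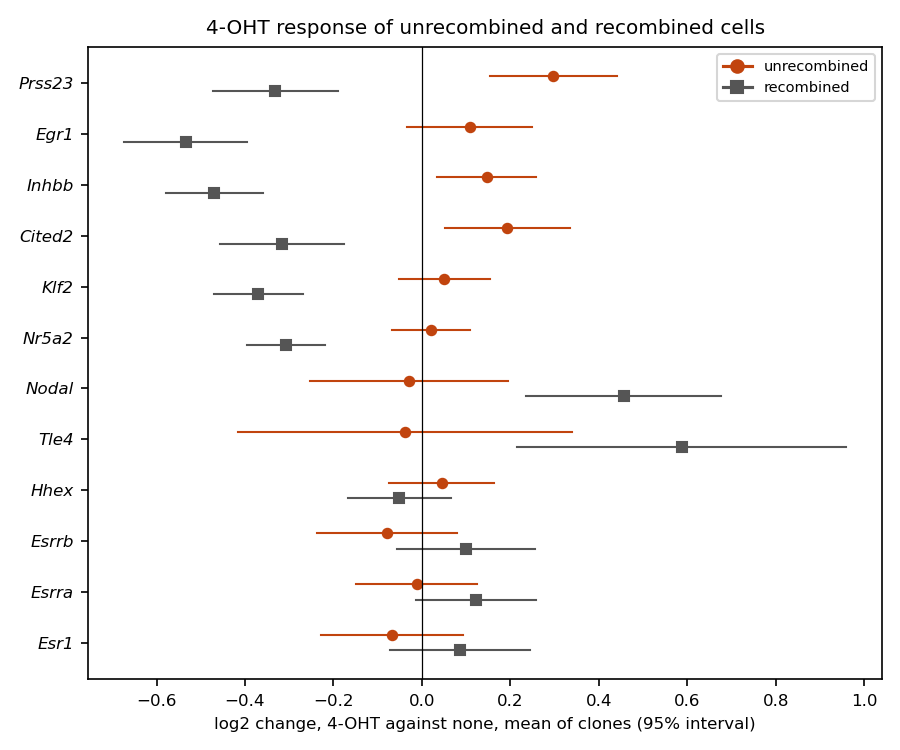
Average change over the clones with 4-OHT (x axis, log2, with 95% intervals) of 12 genes (y axis) in unrecombined (circles) and recombined (squares) HexERTVP2 cells. The unrecombined values lie between −0.08 and 0.30, and those of Klf2, Nr5a2 and Egr1 have intervals that include 0, while in recombined cells the same genes lie between −0.31 and −0.53.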

How the data were processed

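Total RNA of 44 ES cell samples was hybridised to single-channel arrays. The deposited intensity values are linear, 1 per probe set and array, and per the submitters' processing notes were made with RMA, which corrects background, normalises by quantiles and summarises probes; which arrays were processed together is not given in the sources used here. Values were converted to log2. Of 12488 probe sets 66 controls were left out, with no filter on level; 10833 had 1 symbol, 396 several and 1193 none, and 10817 matched RefSeq by gene ID.

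The 28 assigned HexERTVP2 arrays were fitted by group (8 groups, 20 residual degrees of freedom) with limma 3.58.1 in R 4.3.3 (lmFit, eBayes), two-sided, with Benjamini-Hochberg adjustment over all probe sets and a threshold of 0.05. Changes were taken per clone and averaged, and 8 contrasts were tested, 3 of them within recombined cells. Named were passing genes (up to 10 per direction), genes whose arrays separated in both clones, genes fixed for the ligand or the fusion, and up to 3 or 4 genes per list. Members, genes and the 20 lists were chosen with earlier results of these data known. A list gene is its probe set of highest mean. The procedure was tested on simulated data with independent noise on each array. The real arrays shared a component of their spread within groups, which that test does not cover. Figures were drawn with matplotlib 3.10.9. Alternatives are in the closing section.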

Additional observations from a re-analysis of the deposited data

Results flagged for a closer look

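For 7 probe sets the response to 4-OHT differed between unrecombined and recombined cells by the test of that difference. The values, unrecombined minus recombined, were 0.64 for Egr1, 0.63 for Prss23, 0.62 for Inhbb, 0.51 for Cited2, 0.42 for Klf2, 0.33 for Nr5a2 and −0.54 for the probe set without a symbol.

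Among the 5 clone 1 arrays without 4-OHT, 1 array lay far from the others in 5 of 68 named probe sets, and chance alone flags about 1 in 20. The highest array was at 8.18 for Abcg1 (next 8.07), at 3.26 for Foxc1 (next 3.14) and at 6.32 for Hes5 (next 6.21). The lowest was at 9.0 for Cited2 (next 9.30) and at 3.48 for Fas (next 3.74). Array 5 was the one apart for both Cited2 and Hes5. The groups of 3 were not tested in this way.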

How the results depend on the processing

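The count of 0 averaged over the clones, and that of 0 in clone 1, held under every other normalisation, filter, variance setting, set of arrays, covariate, array weight and block and in all 28 fits without 1 array (0 to 0). Without adjustment the counts were 432 averaged, 191 in clone 1, 2125 in clone 2, 1935 for the difference between clones and 686 for unrecombined minus recombined. The clone 2 count of 3 was 0 with all 40 assigned arrays, with the 14 arrays alone, with the clone alone, with the Gapdh ratio as a covariate and with the block in recombined clone 1 alone (both chosen after seeing the data). It was 29 (21 higher, 8 lower) without array 2 of the unrecombined Hex group, 26 (18 and 8) with array weights, 33 (19 and 14) with the β-actin ratio and 23 (16 and 7) at an adjusted p under 0.1. Over left-out arrays it was 0 to 82, with 82 without array 2 and 72 without array 1 of clone 2 without 4-OHT and 11 without array 5 of clone 1 without 4-OHT. The difference between clones gave 1 with array weights and 0 to 1 over left-out arrays. Unrecombined minus recombined gave 2 with 40 arrays, 16 with array weights and 5 to 9 over left-out arrays. The β-actin difference was 0.101 to 0.363 over left-out arrays. Probe sets separated in opposite directions numbered 50 after median centring and 33 after quantile normalisation (78 as reported), also chosen after seeing the data.

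Replicate numbers recur between groups. The deviations of same-numbered unrecombined arrays correlated between −0.564 and 0.684, and 0 of 5 arrays correlated best with their own number. So few arrays cannot show whether the numbers pair the unrecombined arrays. In recombined clone 1 the deviations of same-numbered arrays correlated between 0.308 and 0.821, and 4 of 4 correlated best with their own number. In recombined clone 2 the correlations were −0.690 to 0.256, and 1 of 3 was best with its own. With the replicate block the count was 442 in clone 2, 223 for the difference between clones and 0 for unrecombined minus recombined. The last count was 5 with the block in recombined clone 1 alone. In unrecombined clone 2 the blocked change rests on 2 pairs of same-numbered arrays. Under the block the average changes of Esrra (0.012) and Esrrb (0.00095) turned positive.

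Of the named genes, those that changed sign had average changes near 0. Array weights gave 0.0013 for Esrra, 0.018 for Gt(ROSA)26Sor and 0.0086 for Tle4. The β-actin covariate gave 0.0041 for Esrra, 0.036 for Nodal and 0.064 for Tle4. Over left-out arrays the ranges were −0.15 to 0.0050 for Esr1, −0.038 to 0.022 for Esrra, −0.050 to 0.042 for Gt(ROSA)26Sor, −0.11 to 0.046 for Nodal, −0.14 to 0.074 for Tle4 and −0.029 to 0.058 for Zic2. Of 3072 values for 76 gene results 2906 kept direction and side of the threshold, 139 lost the call and 27 changed sign. Most of these results had passed no test and so had no call to lose. All 139 losses fell on the 3 results called in clone 2 and the 7 called for unrecombined minus recombined. The cause was not tested. No measure of signal over background was used here, so low probe sets such as those of Inhbb and Prss23 may lie near it.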

Other observations

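In clone 2 the fit with the β-actin covariate and the fit of the 39 assigned arrays other than array 2 of the unrecombined Hex group shared 18 calls, 15 higher and 3 lower with 4-OHT, and both held the 3 genes called in the report. Both fits take this change from the same clone 2 arrays, so a shared call is not a second finding. The fits with the Gapdh covariate, all 40 assigned arrays, the 14 unrecombined arrays alone or clone 2 alone called 0. The genes below were named after their values were seen. Among those higher with the covariate were Sfpq, an RNA-binding splicing factor (0.68 in clone 2, −0.10 in clone 1), Nabp1, a single-stranded DNA binding protein (0.67 and −0.11), Gfm1, a mitochondrial translation factor (0.41 and 0.05), Ppp6c, a phosphatase subunit (0.41 and −0.03), and Wls, which carries Wnt ligands to the cell surface (0.49 and 0.03). Among those lower were Ada, adenosine deaminase (−0.51 and 0.05), and Hoxa3, a homeobox gene (−0.36 and 0.05). The clone 1 values are those of the fit without the covariate, and none of the genes named in this paragraph passed in clone 1.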
